A study of Mus musculus with 4 samples.

Results

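The RNA scores of 10 genes were picked out as much higher in cKO than in control samples of LPS-stimulated B cells. The genes are Fxyd2, F630201L12Rik, Cst6, Dok2, Adamts7, Igfbp7, Jam2, Cd5l, Spata13 and Rsph3a, and their rows were found by symbol among the 30041 genes listed for each sample. These 10 genes were chosen by the size of their measured rise in cKO in the same 4 samples, so their levels and fold changes are given as a description, with no test, and support nothing about the rise itself.

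The comparison asks how the transcripts of stimulated B cells differ without IκB-ζ, the nuclear IκB protein encoded by Nfkbiz. Control samples (n = 2) came from Nfkbiz fl/Δ mice, which carry 1 floxed and 1 already deleted allele and no Cre. cKO samples (n = 2) came from Nfkbiz fl/Δ Mb1cre/+ mice, in which Cre is expressed from the Cd79a (Mb1) locus and so acts in the B lineage. All mice were labelled C57BL/6. Both groups share the already deleted allele and differ by the Cre allele as well as by the second deletion. Splenic B cells were purified by depletion of cells bearing CD43, CD4 or Ter-119, markers of T cells, activated leukocytes and erythroid cells, and cultured with LPS for 72 h; the labels give LPS as 20 mg/ml, whereas the methods of the study give the unit as μg/ml. Nothing states whether the samples numbered 1 and 2 came from separate mice or cultures, so how much of the spread between them is technical is not known.

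The value for each gene is a deposited score with no stated unit. Of low scores multiplied by exon length, 75.4 to 82.1% per sample lay within 0.2 of a whole multiple of a step, where 40% would if they were evenly spread, as could arise from read counts divided by exon length and library size, and the step corresponds to 17500000 to 19900000 reads per sample. This depth is inferred and is too high if the true step is a multiple of the one found. Nfkbiz, the targeted gene, had scores of 0.0241 and 0.0226 in control and of 0.0127 and 0.0116 in cKO, a log2 difference of -0.94 (SE 0.096, limma adjusted p = 0.0282), which matches the labels. Cd79a, whose locus carries the Cre, had scores of 0.667 and 0.743 in control and of 0.415 and 0.407 in cKO (log2 difference -0.78, limma adjusted p = 0.0294). Control 2 stood apart at H2-Ea-ps, an MHC class II Eα sequence, with a score of 1.15 against 0.00008 in control 1 and 0 in both cKO samples. Values without control 2 are therefore included in the ranges given for the 10 genes. H2-Ea-ps was not alone: the published list of genes lower in cKO holds others that were higher in control 2 than in control 1, such as Msh5 and H2-M2. It also holds genes that were higher in control 1, such as Hbb-b1. The source of these differences was not tested. Cd79a, H2-Ea-ps, Msh5 and H2-M2 were picked out after their values were seen.

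IκB-ζ is induced by Toll-like receptor ligands such as LPS, binds NF-κB subunits in the nucleus and can raise or lower transcription of their secondary response genes. Most of the 10 genes are better known outside the B lineage: in kidney tubules (Fxyd2), epidermis (Cst6), blood vessels and connective tissue (Igfbp7, Adamts7, Jam2), myeloid cells and T cells (Dok2), tissue macrophages (Cd5l), and cells with motile cilia or flagella (Rsph3a). Spata13 encodes an exchange factor for small GTPases, and F630201L12Rik is known here only by its identifier.

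Genes entered the comparisons across genes if 1 or more samples had a score of 0.005 or above, which 9727 genes met. The 10 genes all met it, but 5 of them (Fxyd2, F630201L12Rik, Dok2, Adamts7 and Jam2) did so only through cKO samples, both control scores being below 0.005. In all 10 genes both cKO scores were above both control scores, an order found in 28.1% of the 9727 genes, and in all 10 the difference was above 2-fold, which was true of 1.14% of these genes. Both counts follow from how the genes were chosen. By the log2 difference on the scale log2(score + 0.0001), Fxyd2, Igfbp7, F630201L12Rik, Jam2, Cst6, Dok2 and Adamts7 held ranks 1 to 7, whereas Cd5l was at rank 14, Spata13 at rank 89 and Rsph3a at rank 109. There were 101 other genes above 2-fold, and 99 of them ranked above Rsph3a. The next 3 genes after Adamts7 were 9530053H05Rik, with a log2 difference of 2.55, S100a4, a calcium-binding protein gene, with 2.51, and Gm12816 with 2.29. Of these only Gm12816 passed the test (limma adjusted p = 0.0157, against 0.286 and 0.0661 for the other 2). Without control 2 the log2 difference of 9530053H05Rik was 0.46, and without control 1 it was 4.65 (limma adjusted p = 5.51e-05). S100a4 passed without either control (limma adjusted p = 0.0414 without control 1 and 0.0263 without control 2) and with the replicate block (0.0258). Every call given here and in the following rests on both cKO samples, since limma called 0 genes without cKO 1 (428 higher and 519 lower at an unadjusted p under 0.05) and 0 without cKO 2 (767 and 982).

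**Figure D1:**
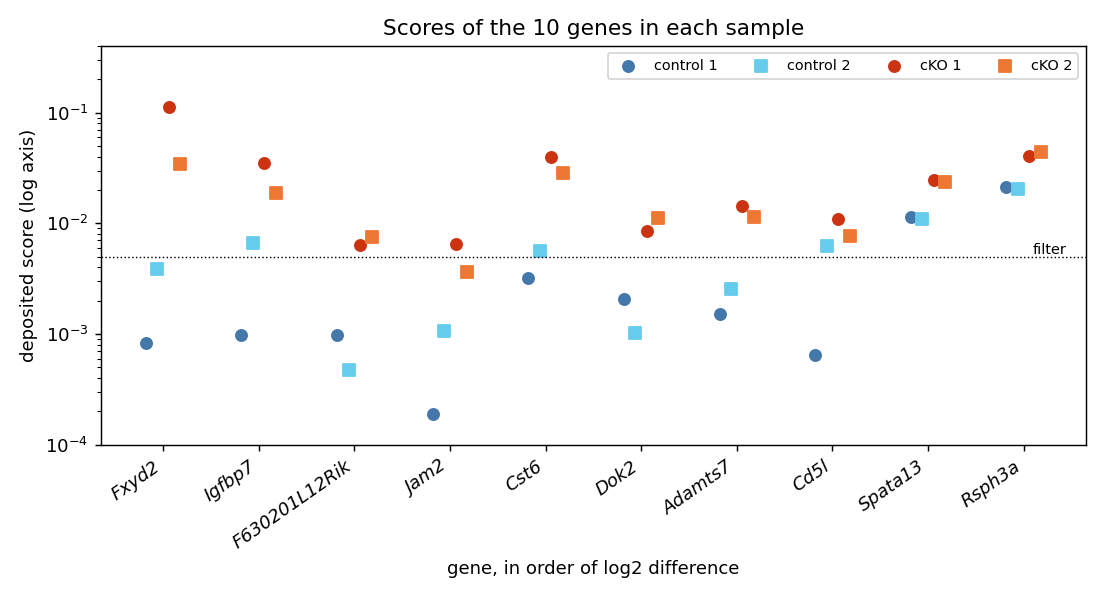
Deposited score (log axis) of each of the 10 genes in control 1, control 2, cKO 1 and cKO 2, in order of the log2 difference. Circles are samples numbered 1 and squares samples numbered 2, and the dotted line marks the filter of 0.005. Cd5l has the smallest gap between the groups, from 0.00618 in control 2 to 0.00773 in cKO 2.

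**Figure D2:**
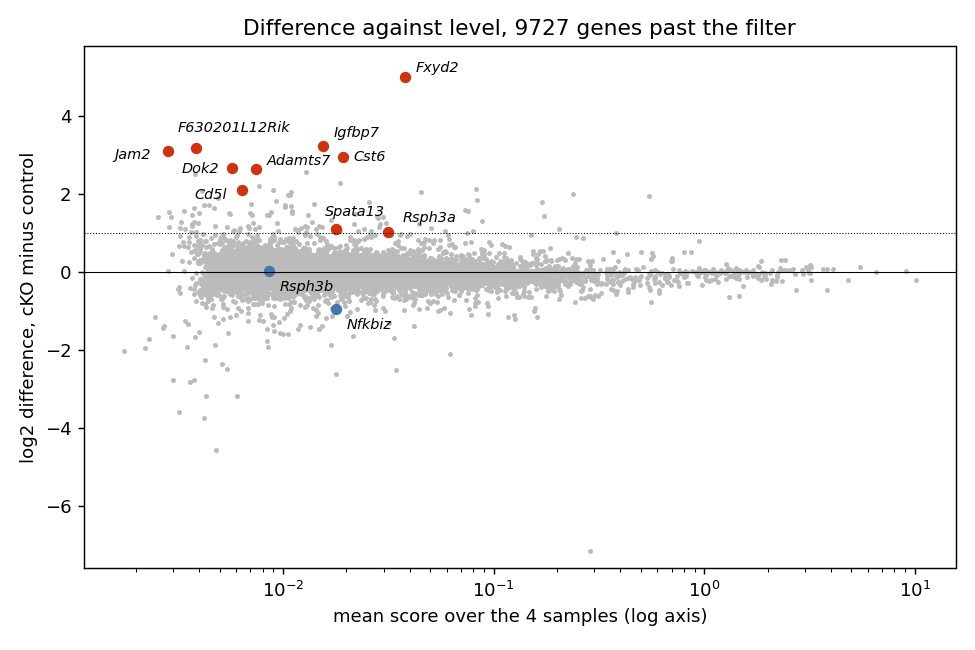
Log2 difference between cKO and control against the mean score (log axis) for the 9727 genes past the filter in grey, with the 10 genes in red and Nfkbiz and Rsph3b in blue. The dotted line marks 2-fold. Fxyd2 lies highest at 5.00, and Spata13 and Rsph3a lie just above the line at 1.11 and 1.02.

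Fxyd2 encodes the γ subunit of the Na,K-ATPase, a small membrane protein that tunes the affinity of the pump for sodium and potassium in kidney tubules. The gene (Entrez 11936) lies on the plus strand of NCBIM37 chromosome 9, at chr9:45207957-45218361. Its score was 0.00083 in control 1, 0.00391 in control 2, 0.112 in cKO 1 and 0.0340 in cKO 2. Both cKO samples were far above both controls, and the samples within each group were far apart as well. The lower cKO score was 8.70 times the higher control score. The log2 difference of 5.00 was the largest rise of all genes past the filter, and it ran from 3.95 without control 1 to 6.06 without control 2. At the inferred step, and with the merged length of the annotated exons of the gene, these scores correspond to 15, 72, 2262 and 602 reads. The length behind the deposited scores is not stated, so all read numbers given here are approximate. Of the 14 listed FXYD family members and Na,K-ATPase subunits other than Fxyd2, 4 passed the filter and 0 were called. Fxyd5, the relative that is well known in lymphocytes, had a log2 difference of 0.40 (limma adjusted p = 0.226), and Atp1b3, a β subunit gene, had 0.36 (limma adjusted p = 0.293) with overlapping groups. The other FXYD genes, Fxyd1, Fxyd3, Fxyd4, Fxyd6 and Fxyd7, were below the filter in all samples.

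Cst6 encodes cystatin E/M, a secreted inhibitor of legumain and of papain-like cathepsins that is known from the epidermis. The gene (Entrez 73720) lies at chr19:5344705-5349574 on the minus strand. Its scores were 0.00321 in control 1, 0.00564 in control 2, 0.0399 in cKO 1 and 0.0283 in cKO 2, or about 226, 408, 3143 and 1958 inferred reads. Both cKO samples were well above both controls, while control 2 was 1.76 times control 1 and cKO 1 was 1.41 times cKO 2. The log2 difference was 2.95 and stayed between 2.55 and 3.35 when any 1 sample was left out. Of 17 other cystatins and target proteases, 7 passed the filter. In 6 of these 7, both cKO scores were above both control scores, which 28.1% of all tested genes show, and their median log2 difference was 0.33 (0.20 without control 1, 0.46 without control 2 and 0.53 with the filter above 0.05), against -0.01 over all 9727 genes. One of them, Ctsb, was called higher, where 0.812% of all tested genes were called higher. Ctsb encodes the lysosomal protease cathepsin B, and its scores were 0.0654 and 0.0738 in control and 0.128 and 0.112 in cKO (log2 difference 0.78, limma adjusted p = 0.0362). Cst3, the gene of the widely expressed cystatin C, had 0.0654 and 0.101 in control and 0.146 and 0.125 in cKO (log2 difference 0.73, limma adjusted p = 0.135). Lgmn, which encodes legumain itself, had a log2 difference of 0.26 (limma adjusted p = 0.188), and Cstb, the intracellular stefin B, had -0.06 (limma adjusted p = 0.657). A further 8 of the listed cystatin and stefin genes, Cst8, Cst9, Cst10, Cst11, Cst12, Stfa1, Stfa2 and Stfa3, were listed at 0 in all 4 samples.

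Igfbp7 encodes a secreted insulin-like growth factor binding protein of vascular endothelium and stroma. The gene (Entrez 29817) lies at chr5:77778265-77837070 on the minus strand. Its score was 0.00099 in control 1, 0.00668 in control 2, 0.0353 in cKO 1 and 0.0187 in cKO 2. Control 2 was 6.75 times control 1, a gap larger than the 2.79-fold gap between control 2 and cKO 2. The log2 difference of 3.24 became 1.93 without control 1 and 4.56 without control 2. Of 12 other IGF-binding proteins, ligands and receptors, 2 passed the filter and 0 were called. Igf2r, the receptor that takes up IGF-II, had a log2 difference of -0.02 (limma adjusted p = 0.928), and Insr, the insulin receptor gene, had 0.41 (limma adjusted p = 0.354). Igfbp1 and Igfbp6 were listed at 0 throughout. Igfbp7 and Polr2b, an RNA polymerase II subunit gene on the opposite strand, overlap at their 3′ ends, and 48 of the 1176 windows of 38 bases in the longest Igfbp7 transcript also occur in a transcript of another gene on one strand or the other. Polr2b itself had scores of 0.0394 and 0.0333 in control and of 0.0365 and 0.0367 in cKO.

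Adamts7 encodes a secreted metalloprotease that cleaves the cartilage matrix protein COMP and is known from vascular smooth muscle and cartilage. The gene (Entrez 108153) lies at chr9:90057816-90102909 on the plus strand. Its scores were 0.00151 and 0.00253 in control and 0.0142 and 0.0114 in cKO, or about 172, 296, 1807 and 1272 reads. Both cKO samples were well above both controls. The log2 difference was 2.64 and ran from 2.29 to 2.99 when 1 sample was left out. The list of its relatives and of its substrate COMP has 24 genes, of which 3 passed the filter and 0 were called, and in all 3 both cKO scores were above both control scores, as in 28.1% of all tested genes. Adamts13, the protease of von Willebrand factor, had scores of 0.00799 and 0.00887 in control and of 0.0139 and 0.0125 in cKO (log2 difference 0.64, limma adjusted p = 0.0579). Adamts10, which acts in microfibrils, had a log2 difference of 0.33 (limma adjusted p = 0.237) and Adamts6 had 0.39 (limma adjusted p = 0.289). Most listed ADAMTS genes were at or near 0, among them Adamts3 and Adamts16, which were listed at 0 in all samples.

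Jam2 encodes JAM-B, an adhesion molecule of endothelial junctions that binds JAM-C and the integrin α4β1. The gene (Entrez 67374) lies at chr16:84774368-84826173 on the plus strand. Its score was 0.00019 in control 1, 0.00107 in control 2, 0.00651 in cKO 1 and 0.00365 in cKO 2. These scores correspond to 20, 115, 761 and 376 reads. Control 2 was 5.63 times control 1, and only cKO 1 was above 0.005. The log2 difference of 3.10 became 2.09 without control 1 and 4.10 without control 2, and 1.91 with a pseudocount of 0.001, since the control scores are near the pseudocount. Among 11 other junctional adhesion molecules and partners, 4 passed the filter and 0 were called. The integrin α4 gene Itga4 had scores of 0.0194 and 0.0299 in control and of 0.0554 and 0.0409 in cKO (log2 difference 0.98, limma adjusted p = 0.107). Itgb1, the β1 chain gene of the same receptor, had a log2 difference of -0.30 (limma adjusted p = 0.216), and Itgam, an integrin α chain gene, had 0.00 (limma adjusted p = 0.988). Jam3, which encodes JAM-C, had 0.00034 and 0.00035 in control and 0.00043 and 0.00026 in cKO, with overlapping groups.

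Dok2 encodes an adaptor protein that is phosphorylated on tyrosine and recruits the Ras GTPase-activating protein, and it restrains signalling in myeloid cells and T cells. The gene (Entrez 13449) lies at chr14:71165843-71178302 on the plus strand. Its scores were 0.00206 in control 1, 0.00102 in control 2, 0.00858 in cKO 1 and 0.0112 in cKO 2. Here the order within the groups was the reverse of that of the 5 preceding genes, since control 1 was above control 2 and cKO 2 above cKO 1. The log2 difference was 2.67, between 2.20 and 3.15 when 1 sample was left out. Of 13 other DOK adaptors and partners, 8 passed the filter and 0 were called, 7 of the 8 had both cKO scores above both control scores (28.1% of all tested genes did), and the median log2 difference was 0.17. Dok3, a DOK adaptor known from B cells, had 0.0658 and 0.0936 in control and 0.114 and 0.107 in cKO (log2 difference 0.50, limma adjusted p = 0.180). Lyn, the Src family kinase gene, had a log2 difference of 0.11 (limma adjusted p = 0.448), and Inpp5d, which encodes the inositol phosphatase SHIP, had 0.25 (limma adjusted p = 0.210). The start of Dok2 overlaps Xpo7, a nuclear export receptor gene on the opposite strand, which had 0.0185 and 0.0192 in control and 0.0210 and 0.0204 in cKO.

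Cd5l encodes a secreted scavenger receptor cysteine-rich protein, also called AIM, that is made by tissue macrophages and supports their survival. The gene (Entrez 11801) lies at chr3:87161803-87174996 on the plus strand. Its score was 0.00065 in control 1, 0.00618 in control 2, 0.0109 in cKO 1 and 0.00773 in cKO 2, or about 24, 231, 443 and 276 reads. Control 1 alone stood far below the other 3 samples. Control 2 was 9.51 times control 1, whereas cKO 2 was only 1.25 times control 2. The log2 difference of 2.10 fell to 0.56 without control 1, below 2-fold, and was 3.63 without control 2. Of the 13 listed relatives of CD5L, its regulators and genes that it acts on, 3 passed the filter, 0 were called higher and 1 was called lower, where 1.25% of all tested genes were called lower. The gene called lower was Cd36, a scavenger receptor through which CD5L enters cells, with scores of 0.182 and 0.160 in control and 0.0673 and 0.0932 in cKO (log2 difference -1.10, limma adjusted p = 0.0420). Fasn, the fatty acid synthase gene, had a log2 difference of -0.35 (limma adjusted p = 0.283). Nr1h2, a liver X receptor gene, had 0.11 (limma adjusted p = 0.550). The other liver X receptor gene, Nr1h3, which drives Cd5l in macrophages, was near 0 in all samples, between 0.00015 and 0.00028.

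Spata13 encodes ASEF2, a guanine nucleotide exchange factor for Rac and Cdc42 that is activated by the APC protein. The gene (Entrez 219140) lies at chr14:61252838-61383393 on the plus strand. Its scores were 0.0115 and 0.0109 in control and 0.0248 and 0.0239 in cKO, or about 1867, 1820, 4497 and 3806 reads. The samples within each group were close to each other and the groups well apart. The log2 difference was 1.11 and remained between 1.05 and 1.15 under all alternatives in which the gene was fitted. Of 7 relatives and partners, 4 passed the filter and 0 were called. Apc had scores of 0.00797 and 0.00977 in control and of 0.0125 and 0.0111 in cKO (log2 difference 0.41, limma adjusted p = 0.178), while the GTPase genes Rac2, Cdc42 and Rac1 had log2 differences of 0.14, -0.10 and 0.02.

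Rsph3a encodes a protein of the radial spokes that link the microtubules of motile cilia and sperm flagella. The gene (Entrez 66832) lies at chr17:8138518-8172689 on the plus strand. Its scores were 0.0215 and 0.0203 in control and 0.0410 and 0.0438 in cKO, and the samples of each group again lay close together. The log2 difference was 1.02, between 0.97 and 1.07 when 1 sample was left out, so that it moved to either side of 2-fold. Rsph3b, a near-identical copy on the minus strand of the same chromosome (chr17:7109030-7153070), had scores of 0.00893 and 0.00811 in control and of 0.00852 and 0.00867 in cKO, a log2 difference of 0.01 (limma adjusted p = 0.951). Among 22 listed radial spoke and motile cilium genes other than Rsph3a, 19 were found in the files, 3 passed the filter and 0 were called. Besides Rsph3b these were Spag17, a central apparatus gene, with a log2 difference of 0.05 (limma adjusted p = 0.933), and Ccdc39, needed for assembly of inner dynein arms, with 0.35 (limma adjusted p = 0.383). Foxj1, the master regulator of motile ciliogenesis, was between 0.00062 and 0.00089 in all samples.

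How reads were shared between the copies matters for Rsph3a. The coding sequences of Rsph3a and Rsph3b have the same length, 1551 bases, and differ at 14 bases, an identity of 99.1%, with a longest identical run of 939 bases. Of the 2152 windows of 38 bases (the read length) in the Rsph3a transcript, 1536 (71.4%) also occur in Rsph3b. The sources used here do not state how reads that match both genes were assigned, so the separate values of the copies are uncertain. Where the copies differ most is shown here by bases 114 to 233 of both coding sequences, counted from 1 at the start codon, in which capitals mark the 7 bases that differ between them.
Rsph3a: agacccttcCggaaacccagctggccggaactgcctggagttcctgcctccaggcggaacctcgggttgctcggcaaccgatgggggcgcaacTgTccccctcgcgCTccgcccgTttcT
Rsph3b: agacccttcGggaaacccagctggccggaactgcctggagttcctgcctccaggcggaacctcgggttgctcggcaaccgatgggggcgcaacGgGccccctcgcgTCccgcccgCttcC

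**Figure D3:**
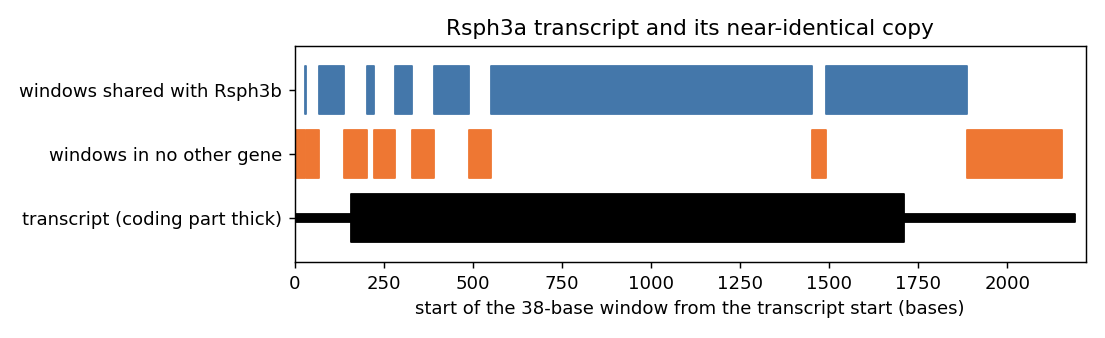
Position along the Rsph3a transcript (bases from its start) of 38-base windows that also occur in Rsph3b (blue, 1536 of 2152). Orange marks windows found in no other gene among protein-coding transcripts, the only ones searched. The transcript is drawn below them with its coding part thick. Windows that tell the copies apart lie mainly in the first part and at the 3′ end of the transcript.

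F630201L12Rik (Entrez 100038369) was listed in the files but not matched to a position or sequence here. Its scores were 0.00098 in control 1, 0.00047 in control 2, 0.00639 in cKO 1 and 0.00759 in cKO 2. As for Dok2, control 1 was above control 2 and cKO 2 above cKO 1. The lower cKO score was 6.52 times the higher control score. The log2 difference of 3.17 became 2.22 with a pseudocount of 0.001 and lay between 2.71 and 3.63 when 1 sample was left out.

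The 10 genes differed in how well samples of the same group agreed. The absolute log2 difference between the 2 controls exceeded 0.54, the 95th percentile over all genes past the filter, in 8 of the 10 genes, Spata13 and Rsph3a being the exceptions at -0.08 each. Between the 2 cKO samples it exceeded the corresponding 0.42 in 5 of the 10 genes. These percentiles are over genes that passed the filter in any sample. Over the 7992 of these genes with a mean score under 0.05 they were 0.57 for the controls and 0.44 for the cKO samples. Of the 10 genes, 5 had both control scores below 0.005, and all were chosen by a large rise. No set matched for low control scores was read, so the count of 8 may follow in part from the choice of genes. The largest gaps between controls were at Cd5l (3.07, control 2 minus control 1), Igfbp7 (2.64), Fxyd2 (2.11) and Jam2 (2.01), whereas only 18 of the 9727 genes had control 2 more than 4-fold above control 1. In these 4 genes, and by smaller amounts in Cst6 and Adamts7, the order of the samples was control 1, control 2, cKO 2 and cKO 1 from low to high. Thus 6 of the 10 genes had control 2 above control 1 together with cKO 1 above cKO 2, an arrangement that 29.5% of all genes past the filter had. Dok2 and F630201L12Rik had the reverse arrangement. The source of this spread was not tested.

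**Figure D4:**
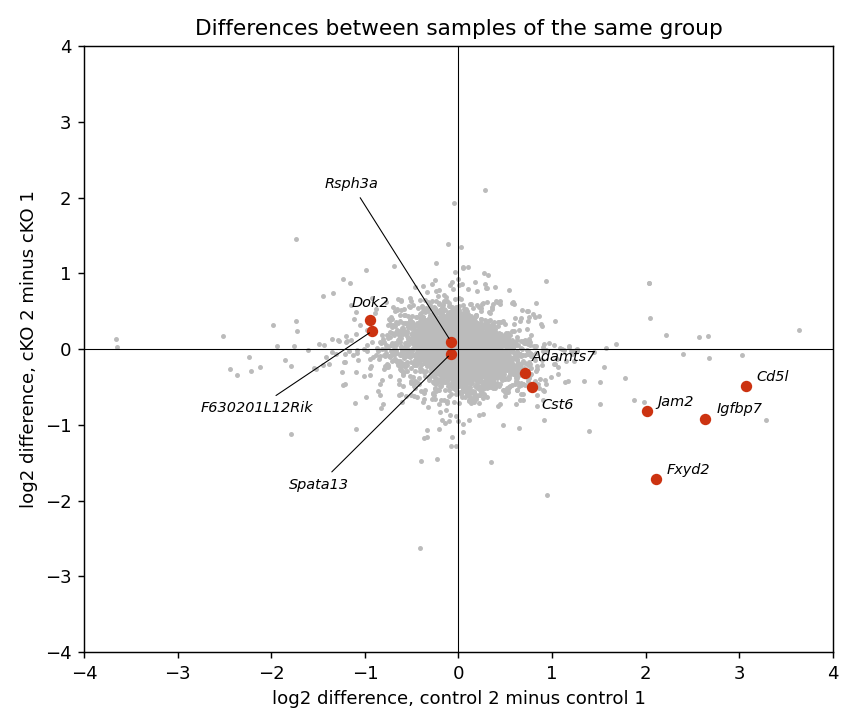
Log2 difference between the 2 cKO samples (vertical axis) against that between the 2 control samples (horizontal axis) for genes past the filter (grey) and the 10 genes (red). Fxyd2, Igfbp7, Jam2 and Cd5l lie at the lower right, with control 2 over 4-fold above control 1, and 8 of the 9727 genes lie outside the axes.

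Markers of the cells in which the 10 genes are better known were read in the same libraries. In bulk samples, fewer cells of a type and less RNA per cell cannot be told apart. The 14 listed B cell markers were all past the filter, with summed scores of 3.20 and 3.55 in control and 3.30 and 3.37 in cKO, and with a median log2 difference of -0.18. Those with the highest scores were Cd79b, which encodes Igβ of the B cell receptor, the tetraspanin gene Cd37 and Ms4a1, which encodes CD20, with log2 differences of 0.28, 0.04 and -0.16 that were not called. One B cell marker, Fcer2a, which encodes CD23, was called lower, against 1.25% of all tested genes, with 0.300 and 0.313 in control and 0.161 and 0.20 in cKO (log2 difference -0.78, limma adjusted p = 0.0428). Of 12 marginal zone and B1 cell markers, 10 passed the filter, with 1 called higher and 1 called lower, against 0.812% and 1.25% of all tested genes. The tetraspanin gene Cd9, a marker of both subsets, had 0.0146 and 0.0222 in control and 0.0468 and 0.0395 in cKO (log2 difference 1.26, limma adjusted p = 0.0496). Bhlhe40, a transcription factor gene, had a log2 difference of -0.62 (limma adjusted p = 0.0411). Below the filter, Cd5 had 0.00094 and 0.00139 in control and 0.0038 and 0.00453 in cKO. Ctla4, also below it, had 0.0023 and 0.00276 in control and 0.00073 and 0.00128 in cKO.

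For Cd5l and Dok2 the macrophage markers are the nearest. Of 13 macrophage and monocyte markers, 5 passed the filter and 0 were called, with a median log2 difference of 0.75 (1.22 without control 1 and 0.29 without control 2). Both cKO scores were above both control scores in 3 of these 5, an order that 28.1% of all tested genes had. At any level 6 of the 13 markers had it, a count for which no share over all genes was taken. The summed score was 0.224 and 0.203 in control and 0.243 and 0.254 in cKO, most of it Itgam. Lyz2, a lysozyme gene of myeloid cells, had 0.0205 and 0.0112 in control and 0.0485 and 0.0329 in cKO (log2 difference 1.39, limma adjusted p = 0.0961), while Itgam and Mpeg1 had 0.00 and -0.21. Lyz1 had 1.46 and Cd68 had 0.75, neither of them called, and Cd14, Csf1r and Emr1, below the filter, were higher in both cKO samples than in both controls. The complement genes C1qa, C1qb and C1qc, which resident macrophages express strongly, were listed at 0 in both controls and in cKO 2, and at 0.00005, 0.00007 and 0.00014 in cKO 1. Of 13 red pulp and marginal zone macrophage markers, 2 passed the filter and 1 was called higher (0.812% of all tested genes were). The summed score was 0.0195 and 0.0199 in control and 0.0636 and 0.0546 in cKO, most of it Axl and Hmox1. The marker called was Axl, a receptor tyrosine kinase gene, with 0.00896 and 0.0143 in control and 0.0409 and 0.0384 in cKO (log2 difference 1.80, limma adjusted p = 0.0306). Hmox1, which encodes haem oxygenase 1, had a log2 difference of 1.70 (limma adjusted p = 0.0860). Hpgd, Timd4 and Vsig4 were listed at 0 in all samples. Spic, the factor of red pulp macrophages, was at 0.00085 and 0.00030 in control and 0.00036 and 0.00045 in cKO. Also below the filter, Cd163 and Mrc1 were lower in both cKO samples than in both controls, and Vcam1 and Fcna were higher. Fcna rests on 0 inferred reads in each control and 2 in each cKO sample, and no share was counted for genes below the filter.

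For Dok2, T cell markers were read as well. Of 20 T cell and NK cell markers, only Lck passed the filter, with 0.0318 and 0.0437 in control and 0.0690 and 0.0636 in cKO (log2 difference 0.83, limma adjusted p = 0.0734). The summed score was 0.0389 and 0.0507 in control and 0.0815 and 0.0739 in cKO, most of it Lck. The antigen receptor gene Cd3e was at 0 and 0.00004 in control and 0.00007 and 0.00020 in cKO. Thy1, the Thy-1 antigen gene, was at 0.00003 in both controls and at 0.00069 and 0.00085 in cKO. Below the filter, Cd3d, Cd3e, Cd3g, Thy1, Zap70, Lat and Nkg7 were higher in both cKO samples than in both controls. Cd28, Prf1 and Eomes were lower in both. The groups were not separated for the others, among them Cd4, Cd8a and Cd8b1. Some of these orders rest on few inferred reads, such as that of Cd3e, with 0 and 1 in control and 2 and 5 in cKO. No share over all genes was counted below the filter. The part of macrophage or T cell RNA in the scores of Dok2 and Cd5l was not tested.

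For Igfbp7, Jam2 and Adamts7 the endothelial and stromal markers are the nearest. Of 24 such markers 2 passed the filter and 0 were called. The summed score was 0.111 and 0.109 in control and 0.0900 and 0.0992 in cKO, most of it Acta2 and Pecam1, so it says little about the other markers. Both that passed were lower in both cKO samples than in both controls, as were 30.1% of all tested genes, Acta2 with a log2 difference of -0.23 (limma adjusted p = 0.275) and Pecam1 with -0.34 (limma adjusted p = 0.107). Cldn5 was listed at 0 throughout, and Cdh5, the vascular cadherin gene, was at 0.00039 and 0.00045 in control and 0.00015 and 0.00030 in cKO. Of the 22 below the filter, 7 were higher in both cKO samples than in both controls and 2, Cdh5 and Egfl7, were lower. The 7 were Sparc, Col1a1, Col3a1, Col4a1, Col4a2, Flt1 and Pdgfra. Some rest on few inferred reads, such as Col4a1 with 0 in both controls and 5 and 1 in cKO. Among genes past the filter these orders were found in 28.1% and 30.1%, and no share was counted for genes below it. For Fxyd2 and Cst6, 1 of 12 epithelial markers passed the filter. It was Epcam, with 0.00312 and 0.00468 in control and 0.00996 and 0.00714 in cKO (log2 difference 1.12, limma adjusted p = 0.101). Krt8, Krt5, Krt14, Cldn3 and the kidney tubule genes Umod and Slc12a1 were listed at 0 in all samples. Summed epithelial scores were 0.00325 and 0.00520 in control and 0.0102 and 0.00744 in cKO.

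Markers of the remaining lineages were low. None of 15 granulocyte and basophil markers passed the filter, with sums of 0.00356 and 0.00056 in control and 0.00339 and 0.00255 in cKO. Of 8 dendritic cell markers, 2 passed and 0 were called, with Flt3, a cytokine receptor gene, at a log2 difference of -2.49 (limma adjusted p = 0.0767), Ccr9 at 0.55 (limma adjusted p = 0.216), and sums of 0.0212 and 0.0154 in control and 0.0131 and 0.0136 in cKO. The erythroid sum was highest in control 1, at 0.0138, against 0.00283 in control 2 and 0.00286 and 0.00249 in cKO, and came mainly from the globin genes Hbb-b1 and Hbb-b2, which had log2 differences of -1.71 and -1.94 and were not called.

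**Figure D5:**
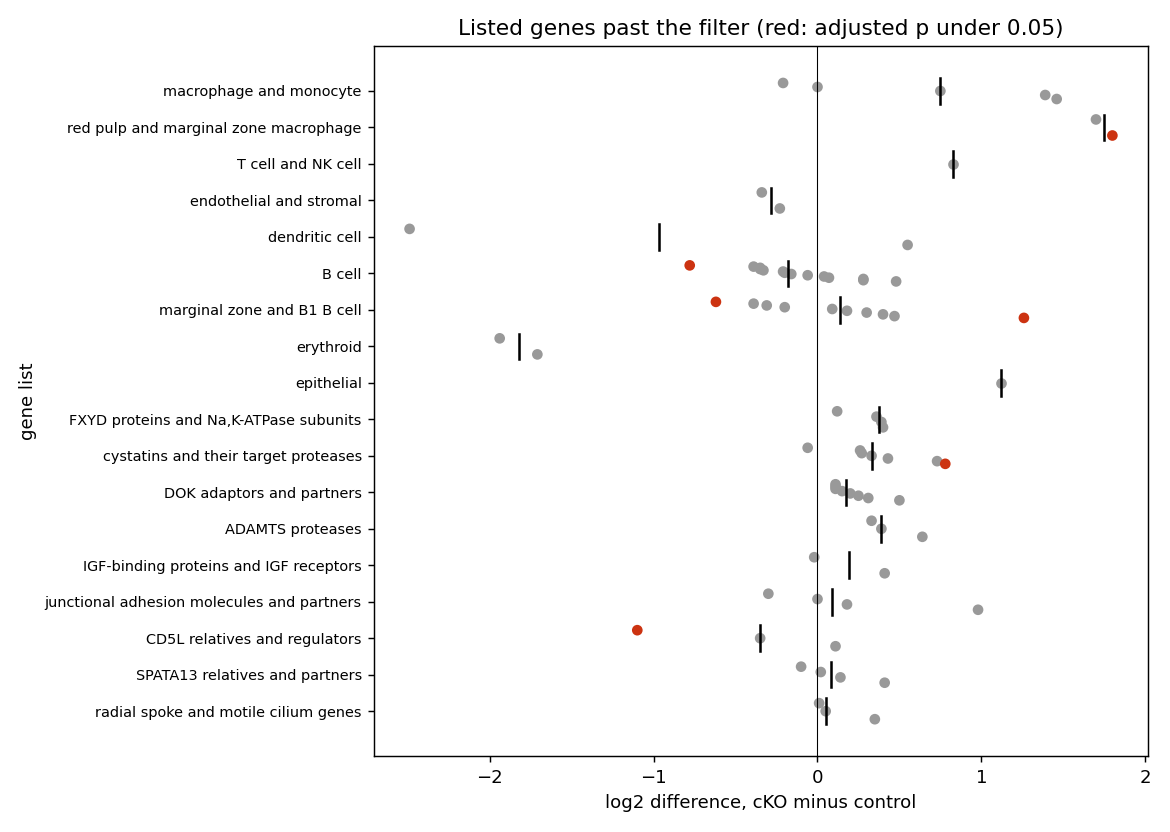
Log2 difference between cKO and control for each listed gene past the filter (points), by list, with the 10 genes taken out. Red points had a limma adjusted p under 0.05 and bars are list medians. Axl, Cd9 and Ctsb are the red points to the right of 0, and Cd36, Fcer2a and Bhlhe40 those to the left.

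The nearest genes past the filter on either side of 9 of the 10 genes, and the 2 genes that overlap Dok2 and Igfbp7, were read from the same fit. Of these 20 neighbours, 0 were called, and their log2 differences lay between -0.45 and 0.34, with a lowest limma adjusted p of 0.113. The values at both ends were Il10ra, the IL-10 receptor gene 130724 bases from Fxyd2, and Tagap, a T cell activation GTPase-activating protein gene 10755 bases from Rsph3a. Atp5j, 1937 bases from Jam2, had a log2 difference of -0.20 (limma adjusted p = 0.304), and Fcrl1, an Fc receptor-like gene of B cells 5312 bases from Cd5l, had -0.37 (limma adjusted p = 0.125). Genes below the filter were skipped, so some neighbours lay far away. Hmgn2-ps1 was 6715188 bases from Igfbp7, and Fndc3a was 1759450 bases from Dok2. The values therefore do not cover the nearest annotated gene in every case.

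Sequence before the transcription start was read for the genes that the RefSeq promoter table held, since IκB-ζ acts with NF-κB at promoters. Windows of 250 bases upstream of the start were held for 4 of the 10 genes (Igfbp7, Cd5l, Spata13 with 2 windows, and Rsph3a). All are given on GRCm38.p6, 5′ to 3′ along the gene, at chr5:77408046-77408295 (minus) for Igfbp7, chr3:87357631-87357880 (plus) for Cd5l, chr14:60634455-60634704 (plus) for the first Spata13 start and chr17:7945364-7945613 (plus) for Rsph3a. Capitals mark the κB pattern GGGNNNNNCC and the ETS-type pattern GAGGAA, each searched on both strands. They are shown so that the members can be compared.
Igfbp7: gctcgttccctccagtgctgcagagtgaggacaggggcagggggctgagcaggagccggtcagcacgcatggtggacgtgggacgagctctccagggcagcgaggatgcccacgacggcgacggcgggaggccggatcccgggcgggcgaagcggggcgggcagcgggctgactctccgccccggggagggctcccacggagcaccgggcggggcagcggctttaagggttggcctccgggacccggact
Cd5l: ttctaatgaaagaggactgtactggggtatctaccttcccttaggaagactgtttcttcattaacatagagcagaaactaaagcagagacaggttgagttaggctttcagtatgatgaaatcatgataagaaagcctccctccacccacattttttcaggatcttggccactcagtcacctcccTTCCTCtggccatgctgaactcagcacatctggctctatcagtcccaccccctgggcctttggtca
Spata13: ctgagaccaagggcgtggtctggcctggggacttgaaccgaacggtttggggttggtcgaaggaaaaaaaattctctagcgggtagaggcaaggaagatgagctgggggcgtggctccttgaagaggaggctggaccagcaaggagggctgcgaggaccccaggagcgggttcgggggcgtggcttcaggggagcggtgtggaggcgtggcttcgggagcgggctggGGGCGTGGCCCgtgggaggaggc
Rsph3a: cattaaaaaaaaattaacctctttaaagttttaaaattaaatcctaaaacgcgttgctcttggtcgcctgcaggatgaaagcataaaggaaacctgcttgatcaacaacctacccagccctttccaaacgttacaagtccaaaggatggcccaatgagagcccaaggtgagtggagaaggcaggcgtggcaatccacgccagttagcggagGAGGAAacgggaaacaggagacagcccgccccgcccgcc

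The κB pattern occurred in the first Spata13 window, as overlapping matches on opposite strands between -23 and -13 from the start, and in none of the windows of Igfbp7, Cd5l and Rsph3a. Of all 32851 windows in the table, 45.8% held it. The pattern GAGGAA was present in Cd5l, on the opposite strand from -66 to -61, and in Rsph3a from -39 to -34, and 23.3% of all windows held it. The shorter ETS core GGAA was not searched, and its letters also occur in the Igfbp7 and Spata13 windows on one strand or the other. The Igfbp7 window had a GC content of 74.0% and 4 matches to the GC box GGGCGG, a pattern found in 32.7% of all windows, whereas the Cd5l window had 46.8% GC and no match. The RefSeq window of Rsph3b lay inside the GENCODE transcript of the gene and is not compared here. A match to these letters is a description of the window and shows no binding.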

How the data were processed

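Gene expression was read by RNA-seq from splenic B cells after 72 h with LPS, in 2 control and 2 cKO samples. Per the submitters' processing notes and the methods, the authors sequenced poly(A) RNA with 38-base reads, mapped them to mm9 with TopHat2 2.0 and Bowtie, and removed rRNA and tRNA reads with bedtools. The authors deposited 1 score per gene, with Entrez identifier and symbol. The step from reads to score is not given in the sources used here.

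Samples were grouped by title. Scores were analysed as log2(score + 0.0001). Genes with 0.005 or more in 1 or more samples (9727 of 30041) entered a linear model with a mean-variance trend and no block (limma 3.58.1, run under R 4.3.3) with Benjamini-Hochberg adjustment over all of them, and a gene was called at an adjusted p under 0.05. The 10 genes were in the fit, but their p-values are not given, because they were chosen by the measured rise. With 2 samples per group, 0.33 is the smallest two-sided p of an exact permutation test. The fit and the depth estimate were tested on simulated data.

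The genes, lists and tests were chosen with earlier results of these data known, which bears on every list described. Named genes are the 10, Nfkbiz, the 3 largest other rises, list genes with the highest mean scores or called, listed markers near 0 that define a cell type, nearest neighbours past the filter, and Rsph3b. Some listed markers below the filter, and genes picked out after their values were seen, are named as well. List counts leave out the 10 genes. Positions are from GENCODE vM1 on NCBIM37, the same assembly as mm9, which held 9 of the 10 genes. Sequences upstream of starts are from RefSeq (GRCm38.p6). Scripts used pandas 2.3.3, scipy 1.17.1, numpy 2.4.6 and, for figures, matplotlib 3.10.9, all under Python 3.11.15. Alternatives tried were other pseudocounts (0.001 and 0.00001), no filter, a filter above 0.05, no variance trend, 2 other scalings, the replicate block, and each sample left out. A listed gene that these rules cover is not reported here.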

Additional observations from a re-analysis of the deposited data

How the results depend on the processing

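The log2 differences of the 10 genes kept their sign under every alternative in which they were fitted. Of the 101 such values, 96 moved by less than the spread within groups. Neither result tests stability when 1 sample is left out. The sign is then fixed, because both cKO scores were above both control scores in all 10 genes. With 2 samples per group, such a value also cannot move beyond that spread, and the 0.56 of Cd5l without control 1 is among the 96. The number of the 10 genes above 2-fold was 10 in the reported fit, ranged from 9 to 10 when 1 sample was left out, and was 1 with the filter above 0.05, which only Fxyd2 passed. Among all genes, 111 were above 2-fold, 96 to 151 when 1 sample was left out, 596 without a filter and 18 with the filter above 0.05.

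Calls for genes outside the 10 depended on the setting. The fit gave 79 higher and 122 lower. Without a filter it gave 0 and 0 among 21582 genes (1665 and 1538 at an unadjusted p under 0.05), without the variance trend 11 and 22, and with the filter above 0.05 they were 35 and 88. When 1 sample was left out, higher calls ranged from 0 to 439 and lower calls from 0 to 391. They were 0 without cKO 1 (428 higher and 519 lower unadjusted) and 0 without cKO 2 (767 and 982 unadjusted), 136 and 161 without control 1, and 439 and 391 without control 2. A group left with 1 sample was assumed to vary like the other.

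Same-numbered samples tended weakly to deviate in opposite directions across genes (Pearson r = -0.145, Spearman -0.291). Whether the numbers pair the samples is not stated, and these correlations cannot settle it. The replicate block gave 177 higher and 180 lower. The crossed pairing, added after seeing the data, gave 212 and 230. Alternatives were also run for 12 single genes outside the 10, namely those called together with 9530053H05Rik, S100a4 and Rsph3b, and 36 of their 149 values were no longer past the threshold and 4 newly were. The cilium list's median of 0.05 ranged from -0.05 (without control 2) to 0.23 when 1 sample was left out, and the cause was not tested. Having 2 samples per group and an undocumented score limits all of these values.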
